A study of Homo sapiens with 20 samples.

Results

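The genes described here are 32 target genes of the transcription factor p53, taken by symbol from the 58870 genes of an RNA-seq table of melanoma cells in which FRA1 was silenced. They were chosen by name as known p53 targets, with earlier results of these data known, and all 32 symbols were found. For the descriptions below they were grouped by role into feedback on p53, growth arrest and stress kinases, metabolism and autophagy, DNA repair, death receptors, mitochondrial and other apoptosis, and survival or membrane functions.

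p53 is a tetrameric transcription factor that is stabilised by DNA damage, oncogene activity and other stress, and it binds DNA elements made of a pair of motifs of 10 bases each. Its targets halt the cell cycle, repair DNA, adjust metabolism and, under stronger stress, start apoptosis, while MDM2, itself a target, is the ubiquitin ligase that returns p53 to a low level. FRA1, encoded by FOSL1, is a subunit of AP-1, a dimeric factor that binds the sequence TGAGTCA or TGACTCA downstream of RAS and MAPK signaling.

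RNA was sequenced from the human melanoma cell lines A375 and 1205Lu. Each line received non-targeting siRNAs (si-NT) or siRNAs against FRA1 (si-FRA1), with 3 samples in each of the 4 groups and 12 in all. FRA1 binding was measured by Cut&Run, in which a nuclease tethered to an antibody releases the bound DNA, in unsilenced cells of the same lines with 3 FRA1 samples and 1 IgG control per line. The labels number the samples of a group but do not say whether they are separate cultures, so the p-values measure the spread between these samples. In a bulk sample, fewer cells of a kind and less RNA per cell cannot be told apart.

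The total counts per RNA-seq sample were between 20573412 and 32518903. The level of FOSL1 in CPM (counts scaled to a common library size) ranged from 408 to 424 in A375 controls and from 25.7 to 26.0 in silenced A375 cells, and from 478 to 492 and from 65.1 to 70.9 in the same groups of 1205Lu cells, so that every silenced sample was below every control sample. Of the melanocyte lineage markers, PMEL, MLANA, TYR and DCT were at a mean of at most 1.13 CPM in every group, whereas SOX10 was at 43.96 CPM in A375 and 914 CPM in 1205Lu cells with si-NT and MITF at 52.2 and 3.55 CPM. The summed level of the 8 melanocyte markers was 97.5 to 105 CPM over the A375 samples, 1523 to 1558 CPM in 1205Lu with si-NT, beside 1260 to 1286 CPM with si-FRA1. The summed markers of epithelium, leukocytes and endothelium stayed at or below 2.73 CPM. The 4 fibroblast markers summed to 31.4 to 34.7 CPM with si-NT, beside 59.9 to 61.2 CPM with si-FRA1 in A375, and to 8.59 to 10.8 and 17.0 to 18.9 CPM in 1205Lu. COL1A1 and PDGFRB made up most of this sum. With si-FRA1 the mean of COL1A1 went from 11.1 to 21.8 CPM in A375 and from 1.67 to 2.20 CPM in 1205Lu. That of PDGFRB went from 21.6 to 37.8 CPM and from 6.53 to 14.9 CPM. The other markers of the list, COL1A2 and DCN, were at a mean of at most 0.749 CPM. The part of these shifts in the results below was not tested.

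Sequences that resemble the p53 element were found near the start of 6 of the 32 genes. The search read 2500 bases on either side of the canonical transcription start in GRCh38, on both strands because the element is a palindrome, and allowed 1 mismatch to the pair of motifs, a spacer of at most 1 base and no mismatch at the central C and G of each motif. The share was 18.8% of the p53 target genes and 1.13% of the 14628 protein-coding genes searched in the same way. The elements are shown because they are the DNA that p53 itself would read at these genes. Capitals mark the paired motifs, and 4 flanking bases on each side and any spacer are in lower case, 5′ to 3′ on the strand of the gene.
GADD45A, intron 3, chr1:67686775-67686794, plus strand: tacaGAACATGTCTAAGCATGCTGggga
DDB2, exon 1, chr11:47214969-47214988, plus strand: ctccAAGCTGGTTTGAACAAGCCCtggg
DDB2, exon 1, chr11:47214979-47214999, plus strand: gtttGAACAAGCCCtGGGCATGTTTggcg
ZMAT3, intron 1, chr3:179070188-179070207, minus strand: cataAAACAAGTCCAGACATGCCTaggc
CCNG1, intron 1, chr5:163437926-163437945, plus strand: gtgaGCACAAGCCCAGGCTAGTCCgagg
PLK2, upstream of the start, chr5:58462274-58462293, minus strand: tgagAAACATGCCTGGACTTGCCCtgca

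The pair at DDB2 share a motif and are not separate sites. The remaining gene with a match was RRM2B. Of the elements shown, those of GADD45A, DDB2 and CCNG1 lay inside a consensus peak of the FRA1 Cut&Run data and those of ZMAT3 and PLK2 did not. By the limit on IgG given below, these GADD45A and DDB2 peaks were enriched in A375 alone and the CCNG1 peak in neither line. A match to these letters is a description of the sequence and was not tested for binding.

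Upon FRA1 silencing, most of the p53 target genes rose in each cell line. In A375 cells, 31 of the 32 genes passed the filter on low counts, and 21 rose and 6 fell at an adjusted p under 0.05 (edgeR's quasi-likelihood test, Benjamini-Hochberg adjustment over all genes tested). Of all protein-coding genes tested in A375, 29.9% rose and 27.8% fell. In 1205Lu cells, all 32 genes were tested, and 19 rose and 4 fell, while 24.0% of all protein-coding genes rose and 23.0% fell. The median log2 fold change of the p53 target genes, si-FRA1 over si-NT, was 0.37 in A375 and 0.33 in 1205Lu, beside medians of 0.01 and -0.0009 over all protein-coding genes. Their log2 fold changes ranged from -0.46 to 1.078 in A375 and from -0.92 to 1.504 in 1205Lu.

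The changes were moderate in size. Among the A375 calls, 7 rises and no fall were larger than 1.5-fold, which 6.67% of all protein-coding genes reached upward and 7.93% downward. Among the 1205Lu calls, 9 rises and 1 fall were larger than 1.5-fold, beside 3.74% and 6.0% of all protein-coding genes. Past 2-fold were 3 genes in each line, all higher: BTG2, TP53INP1 and NINJ1 in A375, and BTG2, TP53INP1 and BBC3 in 1205Lu. The share of all protein-coding genes past 2-fold was not counted.

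**Figure D1:**
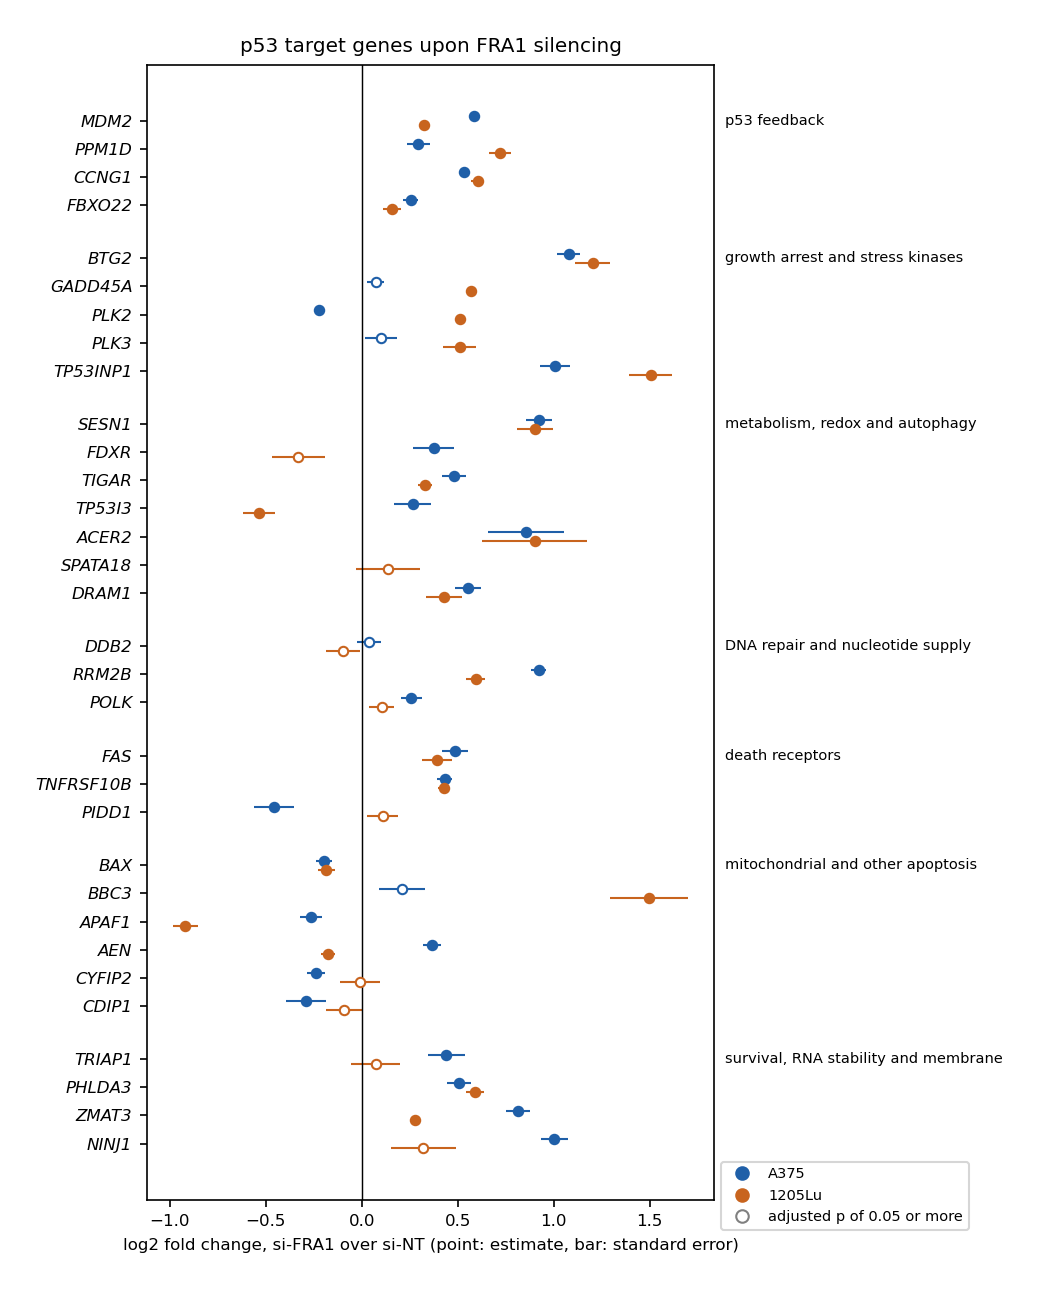
Log2 fold change (x axis, si-FRA1 over si-NT) of each p53 target gene (y axis, grouped by role) in A375 (blue) and 1205Lu (orange), with bars for the standard error; open points had an adjusted p of 0.05 or more. Points lie to the right of 0 for 25 of 31 genes in A375 and for 24 of 32 in 1205Lu, and BAX, APAF1 and CDIP1 are among those to the left in both; SPATA18 has no A375 point.

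The feedback genes rose without exception, 4 of 4 in each line. Beside this and the counts by role below, 29.9% of all protein-coding genes rose in A375 and 24.0% in 1205Lu. MDM2, the ubiquitin ligase of p53, was at 209.8, 210.4 and 208.6 CPM in the A375 si-NT samples and at 320.5, 309.6 and 315.6 CPM in the A375 si-FRA1 samples. In 1205Lu it was at 205, 213 and 209 CPM with si-NT and at 264, 266 and 265 CPM with si-FRA1. The control samples of both lines were thus at about the same MDM2 level, every silenced sample was above them, and the A375 silenced samples were the highest. The log2 fold change was 0.58 ± 0.02 (SE, n = 3 per group) in A375 (adjusted p = 4.6e-16, edgeR) and 0.32 ± 0.02 in 1205Lu (adjusted p = 5.4e-10).

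CCNG1 encodes cyclin G1, which brings a phosphatase to MDM2. The A375 samples had 195, 188 and 189.8 CPM with si-NT, beside 268, 279 and 285 CPM when silenced, and the 1205Lu samples had 70.0, 69.8 and 71.8 CPM and 107, 109 and 110.1 CPM. Silenced and control samples did not overlap in either line, although the 1205Lu silenced samples stayed below the A375 controls. The log2 fold changes were 0.53 ± 0.03 in A375 and 0.60 ± 0.03 in 1205Lu.

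PPM1D encodes the phosphatase WIP1, which shuts off p53 signaling. It was at 26.3, 26.3 and 26.4 CPM with si-NT and at 32.8, 30.3 and 34.0 CPM with si-FRA1 in A375, and at 26.1, 28.4 and 29.7 CPM and 48.4, 46.9 and 44.8 CPM in 1205Lu. The 1205Lu silenced samples stood above all others. Its log2 fold change was 0.29 ± 0.06 in A375 and 0.72 ± 0.06 in 1205Lu. FBXO22, the substrate-binding subunit of a ubiquitin ligase, changed least in the group, with log2 fold changes of 0.26 in A375 and 0.16 in 1205Lu (adjusted p = 0.012, and 0.081 without 1205Lu si-FRA1 replicate 2).

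Of the growth arrest and stress kinase genes, 5 of 5 rose in 1205Lu, and in A375 2 rose and 1 fell. BTG2, an antiproliferative cofactor of mRNA deadenylation, was at 19.4, 22.3 and 20.01 CPM with si-NT and at 43.7, 42.9 and 44.3 CPM with si-FRA1 in A375. In 1205Lu its level was 10.98, 12.8 and 15.1 CPM with si-NT, beside 29.0, 29.6 and 31.4 CPM with si-FRA1. The groups were well apart in both lines. On the log2 scale it rose by 1.078 ± 0.06 in A375 (adjusted p = 2.5e-13, edgeR) and by 1.2021 ± 0.09 in 1205Lu (adjusted p = 1.1e-09).

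TP53INP1, a scaffold for kinases that phosphorylate p53, had with BBC3 the largest rises of the 32 genes in 1205Lu, which differed by less than their standard errors. It was at 11.8, 11.3 and 13.1 CPM with si-NT and at 24.8, 23.0 and 24.97 CPM with si-FRA1 in A375, and at 5.59, 5.52 and 4.98 CPM and 16.2, 15.2 and 14.9 CPM in 1205Lu. Control and silenced samples did not overlap in either line. It rose by 1.01 ± 0.08 in A375 and 1.504 ± 0.11 in 1205Lu on the log2 scale.

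The polo-like kinases PLK2 and PLK3 and the stress sensor GADD45A rose in 1205Lu but not in A375. For GADD45A the log2 fold change was 0.07 in A375 (adjusted p = 0.20) and 0.57 in 1205Lu, where its mean went from 154 to 231 CPM. PLK3 had 0.10 in A375 (adjusted p = 0.33) and 0.51 in 1205Lu. PLK2 fell in A375 and rose in 1205Lu. Its A375 level was 429.7, 417 and 425 CPM with si-NT, beside 367, 366 and 363 CPM with si-FRA1, and its 1205Lu level was 312, 312 and 305 CPM with si-NT, beside 442, 452 and 447 CPM with si-FRA1. The groups did not overlap in either line, and the order of control and silenced samples was reversed between the lines, with log2 fold changes of -0.22 ± 0.02 and 0.51 ± 0.02.

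**Figure D2:**
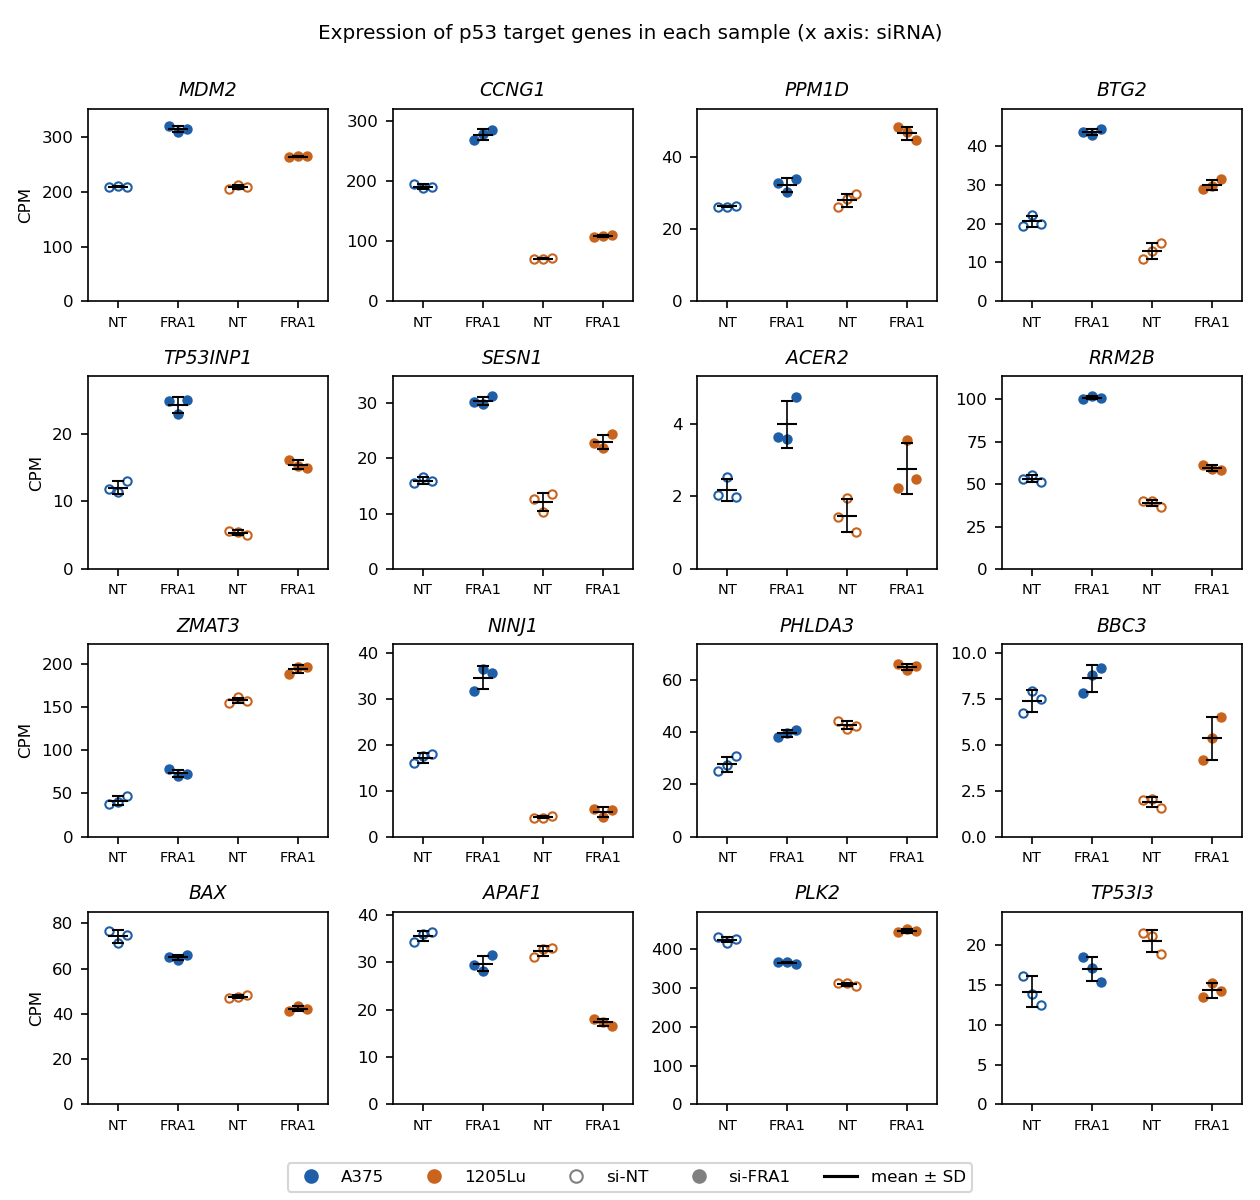
Level of 16 p53 target genes in each RNA-seq sample (y axis, CPM from 0; x axis, siRNA), with A375 in blue, 1205Lu in orange, si-NT open, si-FRA1 filled, and black bars for mean ± SD of 3 samples. MDM2, CCNG1, PPM1D, BTG2, TP53INP1, SESN1, ACER2, RRM2B, ZMAT3 and PHLDA3 are higher in every silenced than in every control sample of the same line, BAX and APAF1 lower, and PLK2 moves in opposite directions.

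The metabolic, redox and autophagy genes mostly rose in A375, with 6 of 7 higher and SPATA18 below the filter, and in 1205Lu 4 were higher and 1 lower. SESN1, a sestrin that restrains mTOR signaling, was at 15.4, 16.7 and 15.8 CPM with si-NT and at 30.2, 29.8 and 31.2 CPM with si-FRA1 in A375. In 1205Lu it was at 12.5, 10.2 and 13.5 CPM with si-NT and at 22.8, 21.8 and 24.3 CPM with si-FRA1. Silenced samples were above control samples throughout, and the changes were close in size, 0.92 ± 0.07 and 0.90 ± 0.09 on the log2 scale.

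ACER2, a ceramidase of the Golgi, was the least abundant gene with a called rise in both lines. Its level was 2.04, 2.53 and 1.99 CPM with si-NT, beside 3.64, 3.59 and 4.74 CPM with si-FRA1 in A375, and 1.43, 1.96 and 1.03 CPM and 2.24, 3.57 and 2.49 CPM in 1205Lu. The groups did not overlap, but the spread was wide, with 25 to 80 counts per 1205Lu sample. The log2 fold change was 0.86 ± 0.20 in A375 (adjusted p = 0.00086) and 0.90 ± 0.27 in 1205Lu (adjusted p = 0.012), and the 1205Lu call was lost without si-NT replicate 3 (adjusted p = 0.055) or si-FRA1 replicate 2 (adjusted p = 0.10).

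TIGAR, which lowers the flux through glycolysis, rose by 0.48 in A375 and 0.33 in 1205Lu on the log2 scale. DRAM1, a lysosomal membrane protein of autophagy, rose by 0.55 and 0.43. FDXR, the mitochondrial ferredoxin reductase, rose in A375 (0.37, adjusted p = 0.0049) and had a log2 fold change of -0.33 in 1205Lu (adjusted p = 0.062), which passed the test without si-FRA1 replicate 3 (adjusted p = 0.035) and with a filter of at least 10 counts in every sample (adjusted p = 0.041).

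TP53I3, a quinone oxidoreductase, was called in opposite directions in the lines. In A375 it was at 16.2, 13.9 and 12.4 CPM with si-NT and at 18.5, 17.1 and 15.4 CPM with si-FRA1, so the groups overlapped. Its 1205Lu level was 21.5, 21.2 and 18.9 CPM with si-NT, beside 13.4, 15.3 and 14.3 CPM with si-FRA1, without overlap. The log2 fold change was -0.54 ± 0.08 in 1205Lu (adjusted p = 2.1e-05) and 0.26 ± 0.10 in A375 (adjusted p = 0.026). The A375 call was lost with DESeq2 (adjusted p = 0.051) and without si-NT replicate 2 (0.062), si-NT replicate 3 (0.17), si-FRA1 replicate 1 (0.16) or si-FRA1 replicate 2 (0.054).

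SPATA18, a mitochondrial quality control protein, had 0 to 4 counts in each A375 sample and was not tested there. In 1205Lu it was at a mean of 4.48 CPM with si-NT, beside 4.98 CPM with si-FRA1, and its log2 fold change of 0.14 did not pass the test (adjusted p = 0.56).

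Of the repair genes, RRM2B rose in both lines. It encodes the p53-inducible small subunit of ribonucleotide reductase, which supplies deoxynucleotides outside S phase. Its level was 52.8, 55.4 and 51.3 CPM with si-NT, beside 100.5, 102 and 100.7 CPM with si-FRA1 in A375, and 40.3, 39.9 and 36.7 CPM and 61.4, 58.9 and 58.3 CPM in 1205Lu. The A375 silenced samples were far above every other sample. The rise was 0.92 ± 0.04 on the log2 scale in A375 (adjusted p = 1.3e-15, edgeR) and 0.59 ± 0.05 in 1205Lu (adjusted p = 6.9e-09). POLK, a translesion DNA polymerase, rose by 0.26 on the log2 scale in A375 and had 0.10 in 1205Lu (adjusted p = 0.24). DDB2, which recognises UV lesions for nucleotide excision repair, passed the test in neither line, with log2 fold changes of 0.04 in A375 (adjusted p = 0.67) and -0.10 in 1205Lu (adjusted p = 0.42). It carries the overlapping pair of p53-like elements in exon 1 shown above.

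Both death receptors rose in both lines. FAS, the receptor for FAS ligand, rose by 0.48 in A375 and 0.39 in 1205Lu on the log2 scale, and TNFRSF10B, a receptor for TRAIL, by 0.43 and 0.43. PIDD1, a death domain protein that activates a caspase, fell in A375, from a mean of 11.6 to 8.47 CPM (log2 fold change -0.46, adjusted p = 0.00064), and had 0.11 in 1205Lu (adjusted p = 0.31).

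Of the 6 genes of mitochondrial and other apoptosis, 1 rose and 4 fell in A375, and 1 rose and 3 fell in 1205Lu, beside 27.8% and 23.0% of all protein-coding genes that fell. The A375 falls include CDIP1, whose call was lost without 4 of the 6 samples, each left out alone. BAX, which forms pores in the mitochondrial outer membrane, was at 76.6, 71.2 and 74.9 CPM with si-NT and at 65.1, 63.8 and 65.9 CPM with si-FRA1 in A375. The 1205Lu samples were at 47.0, 47.4 and 48.3 CPM with si-NT and at 41.4, 43.4 and 42.3 CPM with si-FRA1. The silenced samples were lower without overlap, by a small amount. BAX changed by -0.20 ± 0.04 on the log2 scale in A375 (adjusted p = 0.00026) and -0.18 ± 0.05 in 1205Lu (adjusted p = 0.003).

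APAF1, the core of the apoptosome, had the largest fall of the 32 genes in 1205Lu. It was at 34.3, 36.0 and 36.3 CPM with si-NT and at 29.4, 28.2 and 31.4 CPM with si-FRA1 in A375, and at 31.2, 32.8 and 33.0 CPM and 18.0, 17.3 and 16.6 CPM in 1205Lu. The 1205Lu silenced samples were the lowest. Between the control samples, the log2 fold change of 1205Lu over A375 was -0.07 (adjusted p = 0.27), and it was called lower with library totals alone (-0.2013, adjusted p = 0.0023) and without a filter on low counts (-0.1983, adjusted p = 0.003). Its change was -0.27 ± 0.06 on the log2 scale in A375 and -0.92 ± 0.07 in 1205Lu.

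BBC3 encodes PUMA, which frees BAX from its inhibitors, and was the gene of this group that rose in 1205Lu. In A375 it was at 6.74, 7.91 and 7.50 CPM with si-NT and at 7.81, 8.81 and 9.19 CPM with si-FRA1. In 1205Lu it was at 2.00, 2.05 and 1.56 CPM with si-NT and at 4.19, 5.36 and 6.51 CPM with si-FRA1. The groups overlapped in A375 and did not in 1205Lu, where the silenced samples stayed below the A375 controls. The log2 fold change was 0.21 ± 0.12 in A375 (adjusted p = 0.15) and 1.496 ± 0.20 in 1205Lu (adjusted p = 5.0e-06, 38 to 136 counts per sample).

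AEN, an apoptosis-enhancing nuclease, was the gene of the group that rose in A375 (0.36 on the log2 scale) and fell in 1205Lu (-0.17). CYFIP2, a subunit of the actin-regulating WAVE complex, fell in A375 (-0.24) and had -0.01 in 1205Lu (adjusted p = 0.94). CDIP1 fell in A375 (-0.29, adjusted p = 0.023) and had -0.09 in 1205Lu (adjusted p = 0.50). The CDIP1 call in A375 was lost without si-NT replicate 1 or 3 or si-FRA1 replicate 2 or 3, with adjusted p-values of 0.056 to 0.10, and without a filter on low counts (adjusted p = 0.059).

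The remaining genes act in survival, RNA stability and the membrane, and 4 of 4 rose in A375 and 2 in 1205Lu. ZMAT3, an RNA-binding zinc finger protein, was at 37.7, 40.2 and 47.4 CPM with si-NT and at 78.1, 70.4 and 72.1 CPM with si-FRA1 in A375. The 1205Lu samples were at 155, 161 and 157 CPM with si-NT and at 188, 196 and 197 CPM with si-FRA1. The 1205Lu control samples were above the A375 silenced samples. Its log2 fold change was 0.81 ± 0.06 in A375 and 0.28 ± 0.03 in 1205Lu.

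NINJ1, a protein of plasma membrane rupture, was at 15.9, 17.6 and 17.9 CPM with si-NT and at 31.7, 36.6 and 35.5 CPM with si-FRA1 in A375, and at 4.12, 4.05 and 4.48 CPM and 6.09, 4.196 and 5.74 CPM in 1205Lu. The A375 groups were far apart and the 1205Lu groups overlapped. NINJ1 changed by 1.00 ± 0.07 on the log2 scale in A375 and 0.32 ± 0.17 in 1205Lu (adjusted p = 0.14, and 0.035 without si-FRA1 replicate 2).

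PHLDA3, a repressor of AKT, was at 24.97, 27.4 and 30.7 CPM with si-NT and at 38.1, 39.8 and 40.8 CPM with si-FRA1 in A375, and at 44.3, 41.3 and 42.3 CPM and 66.1, 63.7 and 65.1 CPM in 1205Lu. Its groups did not overlap in either line. It rose by 0.51 ± 0.06 and 0.59 ± 0.05 on the log2 scale. TRIAP1, a small protein that limits apoptosis, rose by 0.44 on the log2 scale in A375 and had 0.07 in 1205Lu (adjusted p = 0.71).

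Across the lines, 15 of the 32 genes rose in both, 2 fell in both (BAX and APAF1) and 3 were called in opposite directions (TP53I3, AEN and PLK2). The shares of all protein-coding genes called in these ways were not counted, so these numbers are a description alone. The log2 fold changes had the same sign in both lines for 25 of 31 genes (80.6%), beside 60.5% of 12663 protein-coding genes tested in both. The correlation of the changes between the lines was 0.55 (Pearson) and 0.54 (Spearman) across these 31 genes and 0.31 and 0.29 across all those genes, given as a description because genes are not independent replicates.

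Whether a gene changed differently in the lines was asked of an interaction term in a fit over all 12 samples. The change was more positive in 1205Lu for 7 of the 32 genes and more negative for 8, beside 19.9% and 18.9% of all protein-coding genes. BBC3 had the largest difference, 1.299 ± 0.23 on the log2 scale (adjusted p = 8.6e-05, edgeR), followed on the positive side by PLK2 (0.75), PIDD1 (0.58), GADD45A (0.51), TP53INP1 (0.51), PPM1D (0.44) and PLK3 (0.42). On the negative side were TP53I3 (-0.79), FDXR (-0.69), NINJ1 (-0.67), APAF1 (-0.64), AEN (-0.53), ZMAT3 (-0.52), RRM2B (-0.32) and MDM2 (-0.25). For SESN1, TNFRSF10B and BAX the differences were -0.01 ± 0.12, 0.01 ± 0.05 and 0.02 ± 0.06, and their sign turned under other settings.

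With si-NT, the share of p53 target genes whose level differed between the lines was near that of all protein-coding genes. At an adjusted p under 0.05, 12 (37.5%) were higher and 15 (46.9%) lower in 1205Lu than in A375, beside 40.4% and 42.4% of all protein-coding genes. SPATA18 had 96 to 125 counts in each 1205Lu control and 0 to 3 in each A375 control, and passed the filter through 1205Lu alone. Its fitted log2 fold change of 5.97 rests on those few A375 counts and is no bound, and it became 6.65 without A375 si-NT replicate 1 and 5.37 without A375 si-NT replicate 3. ZMAT3 (log2 fold change 1.99), TIGAR (1.802), GADD45A (1.46), AEN (1.18) and TNFRSF10B (1.17) were also more than 2-fold higher in 1205Lu. CYFIP2 (-2.11), NINJ1 (-1.95), BBC3 (-1.91), CCNG1 (-1.36) and TP53INP1 (-1.09) were more than 2-fold lower. MDM2 was called higher at 0.07 ± 0.03. With library totals alone it was called lower (-0.07, adjusted p = 0.026, edgeR), and with upper-quartile normalization it was not called (adjusted p = 0.32). The call was also lost without A375 si-NT replicate 1, 2 or 3 or 1205Lu si-NT replicate 2 or 3. Each of these was left out alone, with an adjusted p of 0.077 to 0.45. The call of PPM1D as higher was lost without the same samples (adjusted p = 0.086 to 0.16). The MDM2 mean CPM over all 12 samples scaled together was 209.6 in A375 and 209.0 in 1205Lu. Library totals alone moved the median of all protein-coding genes in this comparison from -0.02 to -0.16.

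Per kb of canonical transcript, the most abundant of the genes with si-NT were PLK2 (152 CPM per kb), BAX (93.4), CCNG1 (78.1) and GADD45A (43.5) in A375. In 1205Lu they were GADD45A (114), PLK2 (111), BAX (59.9) and AEN (33.9). Neighbours in this order such as BAX, CCNG1 and GADD45A were far apart relative to their replicate spread, whereas AEN (15.7), DDB2 (15.7) and TNFRSF10B (15.8) in A375 were within it, as were GADD45A and PLK2, and AEN and TNFRSF10B (33.7), in 1205Lu. At the low end, ACER2 was at 0.788 CPM per kb in A375 and 0.531 in 1205Lu.

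**Figure D3:**
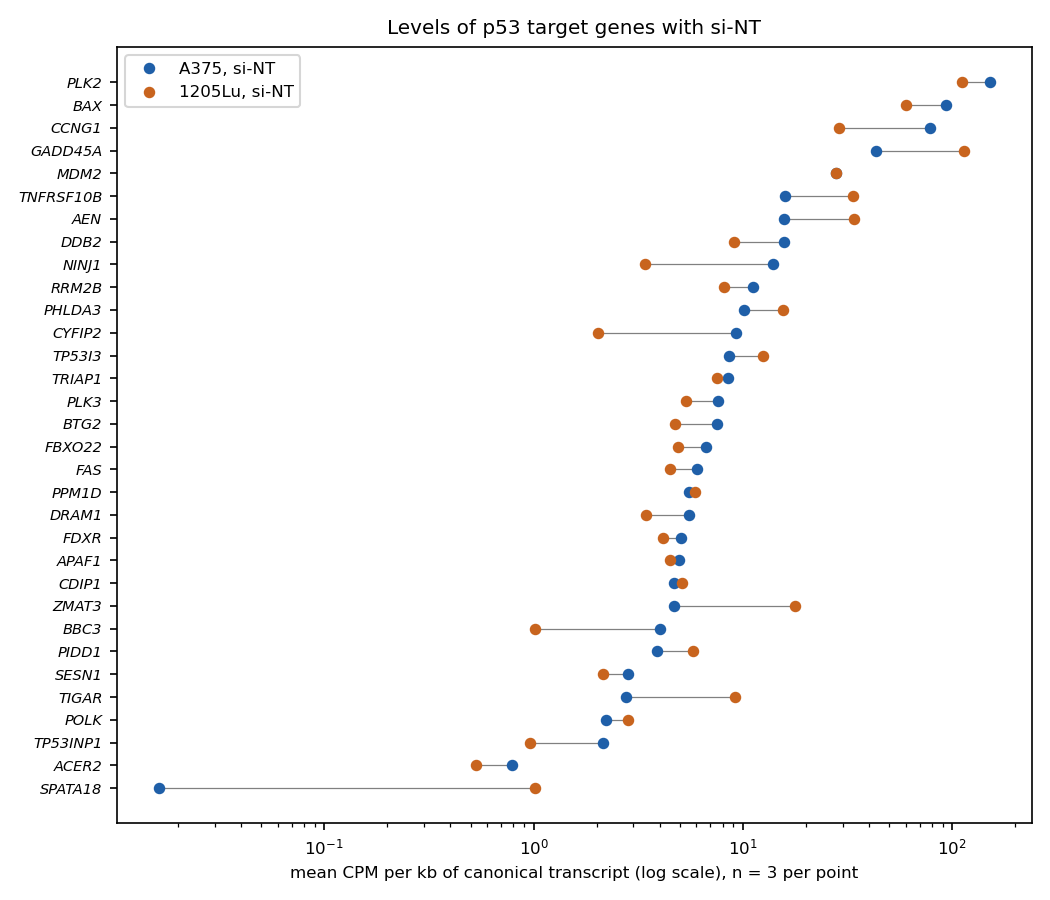
Mean level with si-NT of the 32 p53 target genes (y axis, ordered by the A375 level) in CPM per kb of canonical transcript on a log scale (x axis), with A375 in blue and 1205Lu in orange joined by a grey line. The longest lines belong to SPATA18, NINJ1, CYFIP2, BBC3, ZMAT3 and TIGAR, and the MDM2 points coincide.

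Genes that act on p53 did not move together. Of 19 such genes, 4 rose and 7 fell in A375, and 9 rose and 3 fell in 1205Lu, where 1 did not pass the filter on low counts, with median log2 fold changes of -0.0035 and 0.12. Of all protein-coding genes, 29.9% rose and 27.8% fell in A375, and 24.0% and 23.0% in 1205Lu. Of those called in the same direction in both lines, the largest mean changes over the lines were those of the deacetylase SIRT1 (0.29 in A375 and 0.63 in 1205Lu), and the DNA damage kinases PRKDC (-0.34 and -0.07) and ATR (0.15 and 0.25). MDM4 (-0.62 and 0.13), CREBBP (-0.49 and 0.36), EP300 (-0.46 and 0.25), PPP1R13B (-0.23 and 0.34) and USP7 (-0.19 and 0.13) were called in opposite directions.

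A further list of 25 p53 targets outside the 32 genes was read for comparison, of which 24 had a single row in the table. It was chosen with earlier results of these data known and is not independent of them. In A375 12 rose and 3 fell, and in 1205Lu 11 rose and 3 fell, with medians of 0.31 and 0.24. In A375 2 of the 24 did not pass the filter on low counts, and in 1205Lu 4 did not. Of all protein-coding genes, 29.9% rose and 27.8% fell in A375, and 24.0% and 23.0% in 1205Lu. The cell cycle inhibitor CDKN1A, which encodes p21, rose from a mean of 184 to 394 CPM in A375 (log2 fold change 1.09) and from 167 to 287 CPM in 1205Lu (0.76). GDF15, a secreted stress cytokine, rose by 1.18 and 2.28 on the log2 scale, and the sestrin SESN2 by 0.49 and 0.58.

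Of 20 cell cycle genes known to be lowered through p21 and the DREAM complex, 18 fell in A375 and 20 in 1205Lu. None rose, with medians of -0.34 and -0.45, and 27.8% and 23.0% of all protein-coding genes fell. This list was chosen with earlier results of these data known and is not independent of them. The part of p21 or DREAM in these falls was not tested. The largest mean falls over the lines were those of NEK2 (-0.76 and -1.25), FOXM1 (-0.93 and -0.50) and RRM2 (-0.61 and -0.70). RRM2 is the S-phase counterpart of RRM2B, which rose in the same samples.

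FRA1 Cut&Run counts were then read at the p53 target genes. The deposited table held 54563 consensus peaks, of which 46 lay in these genes or within 3 kb of their annotated starts. The totals in peaks were 3354095 to 5316527 counts for the A375 FRA1 samples and 383994 for IgG, and 583750 to 897407 and 314569 in 1205Lu, so that the 1205Lu values are less precise. The ratio of chi-square to degrees of freedom between FRA1 replicates, which repeated counting alone would bring to 1, was 1.06 for 1205Lu replicates 2 and 3, 1.62 and 1.90 for the other 1205Lu pairs, and 1.093, 1.134 and 1.246 for the A375 pairs. The A375 samples were thus also close to counting noise. Taking the average of 1205Lu replicates 2 and 3 as 1 sample left the count of genes below at 2. A consensus peak within 3 kb of a start was present at 21 of the 32 genes, beside 59.8% of protein-coding genes.

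A peak was called enriched where every FRA1 sample reached 10 counts and 4 times the sum of the IgG count and 1, a rule without a p-value since there is 1 IgG sample per line. The counts were not scaled, so the limit was easier to reach in A375, where the FRA1 totals exceeded IgG by more. By this rule 31310 of the 54563 peaks were enriched in A375 and 3871 in 1205Lu. The numbers of genes are therefore not compared between the lines. In A375, 11 of the 32 genes had an enriched promoter peak, beside 33.5% of protein-coding genes: DDB2, GADD45A, BBC3, AEN, PLK2, PLK3, PPM1D, APAF1, CYFIP2, DRAM1 and PIDD1. In 1205Lu 2 genes had one, DDB2 and PLK3, beside 4.63% of protein-coding genes. Any annotated start of a gene counted. The enriched A375 peaks of PPM1D, APAF1, CYFIP2, DRAM1 and PIDD1 lay more than 3 kb from the canonical start. That of APAF1 was chr12:98733734-98734207, and its canonical start is at 98645290. Peaks beside the canonical starts of APAF1 and PPM1D were not enriched in either line. With every library scaled to the same total in peaks, 0 of the 32 genes had an enriched promoter peak in A375, beside 0.198% of protein-coding genes. In 1205Lu 1 had one, beside 1.21%. This scaling also removes any enrichment that the peaks share.

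The most occupied peak near a start of these genes, chr1:44806833-44808486 in GRCh38, had 960, 1418 and 1139 FRA1 counts and 31 IgG counts in A375, and 173, 369 and 341 FRA1 counts and 18 IgG counts in 1205Lu. It lies beyond the 3′ end of PLK3 and holds the start of another gene, DYNLT4, so its link to PLK3 rests on distance, and PLK3 had no other enriched promoter peak in 1205Lu. At the PLK3 start itself, chr1:44799775-44800891, the counts were 209, 268 and 225 with FRA1 and 20 with IgG in A375, all above IgG, and 19, 37 and 22 with FRA1 and 15 with IgG in 1205Lu.

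GADD45A lay under a broad peak, chr1:67682359-67688196, that covers its start and the p53-like element in intron 3. Its counts were 622, 1020 and 842 with FRA1 and 47 with IgG in A375, and 83, 134 and 136 with FRA1 and 33 with IgG in 1205Lu, where FRA1 replicates 1 and 2 missed the limit. At BBC3, the peak chr19:47225855-47228581 had 268, 417 and 363 FRA1 counts and 34 IgG counts in A375 and was not enriched in 1205Lu, with 24, 35 and 23 FRA1 counts and 15 IgG counts. A narrower BBC3 peak, chr19:47232438-47233319, was also enriched in A375, with 140, 166 and 133 FRA1 counts and 4 IgG counts. In 1205Lu that peak had 22, 28 and 27 FRA1 counts and 10 IgG counts and was not enriched. MDM2 was not enriched in A375, since its promoter peak had 64, 85 and 77 FRA1 counts beside 18 IgG counts and replicate 1 missed 4 times IgG plus 1. The enriched A375 peak at PIDD1 also holds the start of RPLP2.

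Calls upon silencing in A375 were mixed among the genes with an enriched promoter peak there, whereas most genes without one rose. Of the 11 with one, AEN, PPM1D and DRAM1 rose, PLK2, APAF1, CYFIP2 and PIDD1 fell, and DDB2, GADD45A, BBC3 and PLK3 did not pass the test. BTG2, TP53INP1, NINJ1, SESN1 and RRM2B, the genes with the largest rises in A375, had none. Of the tested genes without one, BAX and CDIP1 fell and the others rose. Of all protein-coding genes tested in A375, 29.9% rose and 27.8% fell. The part of the peaks in these calls was not tested. PPM1D, DRAM1, APAF1, CYFIP2 and PIDD1 count among the 11 through starts other than the canonical one.

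**Figure D4:**
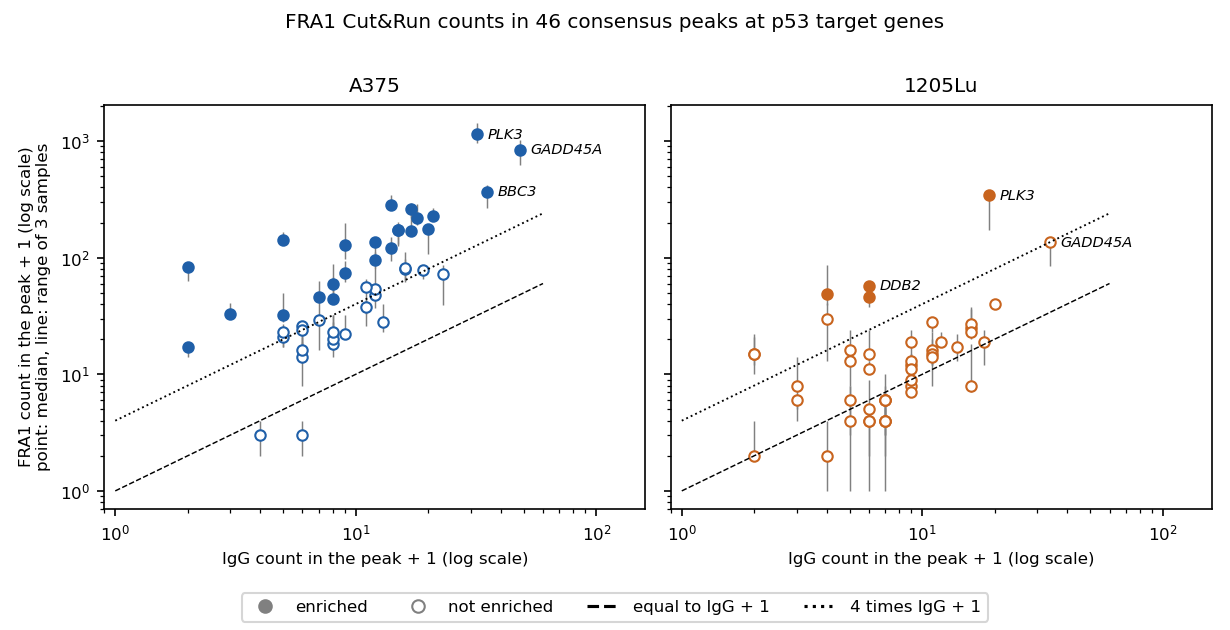
FRA1 counts (y axis, median of 3 samples as a point and their range as a grey line) against IgG counts (x axis) in the 46 consensus peaks at p53 target genes, each plus 1 on log scales, in A375 and 1205Lu; filled points are enriched, the dashed line marks equal counts and the dotted line 4 times IgG plus 1. The peak named for PLK3 and that of GADD45A have the highest counts in both lines, and most 1205Lu points lie below the dotted line.

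The AP-1 sequence, TGAGTCA or TGACTCA on either strand, was searched within 100 bases of the centre of each peak. It was present in 6 of the 46 peaks at p53 target genes and in 28.6% of all peaks. Among the 26 enriched in a line it was present in 4 (15.4%), beside 33.4% of all 32728 enriched peaks. The enriched ones at DDB2 and CYFIP2 are shown because they hold the letters that AP-1 reads, with the sequence in capitals and 10 flanking bases on each side, 5′ to 3′ on the plus strand, which is that of both genes.
DDB2, chr11:47216352-47216358: gcagaagatgTGACTCAgactgcctct
CYFIP2, chr5:157387776-157387782: gaaatcaggaTGAGTCAccgggaatca
CYFIP2, chr5:157390834-157390840: cgtgaggtcgTGAGTCAcccactcatc

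The DDB2 sequence lies in the peak chr11:47215924-47216935, in which the FRA1 counts were 269, 341 and 283 beside 13 with IgG in A375 and 45, 57 and 45 beside 5 in 1205Lu. This peak was enriched in both lines, while the expression of DDB2 did not pass the test in either. The CYFIP2 peaks, chr5:157387347-157388243 and chr5:157390336-157391308, lie in introns, with FRA1 counts of 46, 88 and 59 beside 7 with IgG and of 81, 110.0 and 95 beside 11 in A375, and they were not enriched in 1205Lu. The enriched A375 peak in an intron of TNFRSF10B was the fourth with the sequence.

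RefSeq promoters (GRCh38.p14, 250 bases before to 50 after a start) were given for 26 of the 32 genes, with 39 promoters in all. The AP-1 sequence was present in 3 of these, at MDM2 and BBC3, and in 4.95% of all promoters of the table. The p53-like element was present in 1, at DDB2, and in 0.0883% of all promoters. These shares describe the letters in the windows read and say nothing of which factor is bound there.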

How the data were processed

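RNA-seq covered 12 samples of A375 and 1205Lu cells (si-NT, si-FRA1), and 8 samples had Cut&Run. For RNA-seq, the authors removed adapters with cutadapt 1.8.1, aligned reads to GRCh38 with STAR 2.7.7a and estimated expected counts per gene with RSEM 1.3.0 on a strand-specific library; the deposited expected counts are whole numbers and were used as deposited. The counting strand is not given in the sources used here, so overlapping genes are less certain. For Cut&Run, the authors aligned with Bowtie2 2.4.1, called peaks with MACS2 2.1.1.20160309 and deposited raw read counts per consensus peak. Whether the peak calls used single or pooled samples is not given in the sources used here.

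The counts were fitted with edgeR 4.0.16 in R 4.3.3, each line alone (filterByExpr, TMM, glmQLFit and glmQLFTest, Benjamini-Hochberg over all genes), with the 12 samples together for the interaction and the 6 si-NT samples for the levels between lines. The limit for a call was an adjusted p under 0.05. Shares over all genes are over protein-coding genes. CPM values use TMM over all 12 samples. Peak positions come from the deposited names, and gene models from GENCODE v44 (GRCh38), with sequences read from hg38, all peaks lying within its chromosomes. The sign ± after a log2 fold change gives its standard error. The scripts were tested on simulated data. The members and lists were chosen with earlier results of these data known.

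Every gene is named with its log2 fold change, and values in every sample are given for MDM2, BAX, BBC3, genes called with more than a 1.5-fold change in a line, and, chosen after their values were seen, PLK2 and TP53I3. Outside the 32 genes, FOSL1, CDKN1A and the 3 genes of each list with the largest mean change among those called the same way in both lines are named. Regulators called in opposite directions in the lines are also named, chosen after their values were seen. SCO2, on the list of further targets, had 2 rows and was left out. A gene on the list of regulators is not reported here and was left out of its counts. Alternatives were DESeq2 1.42.0, other normalizations, filters, call limits and IgG limits, a replicate block, all samples in one fit and each sample left out in turn. Counting noise between Cut&Run replicates was compared by chi-square over peaks with at least 20 counts per pair. Averaging 1205Lu FRA1 replicates 2 and 3 was chosen after seeing the data. RNA-seq replicates differed by more than counting noise (chi-square per degree of freedom 2.545 to 3.414), with the biological coefficient of variation at 4.51% in A375 and 4.2% in 1205Lu.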

Additional observations from a re-analysis of the deposited data

Results flagged for a closer look

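For 15 of the 32 p53 target genes the change upon FRA1 silencing differed between 1205Lu and A375 by the interaction test (edgeR, adjusted p under 0.05), 7 upward and 8 downward, beside 19.9% and 18.9% of all protein-coding genes. The difference in log2 fold change, 1205Lu minus A375, was 1.299 for BBC3, 0.75 for PLK2, 0.58 for PIDD1, 0.51 for GADD45A, 0.51 for TP53INP1, 0.44 for PPM1D and 0.42 for PLK3. It was -0.79 for TP53I3, -0.69 for FDXR, -0.67 for NINJ1, -0.64 for APAF1, -0.53 for AEN, -0.52 for ZMAT3, -0.32 for RRM2B and -0.25 for MDM2. TP53I3, AEN and PLK2 were called in opposite directions in the lines. Dixon's test for a sample far from the others was not applied, since each group has 3 samples.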

How the results depend on the processing

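The counts of genes called in each direction, the medians and the number of interactions stayed within 1.5 times their reported values under DESeq2, the other normalizations, the other filters and an adjusted p under 0.01, where a setting gave a value. A fit of all 12 samples together was an alternative for the changes within each line alone, and there it kept the counts and medians within the same limit. Leaving out each sample in turn gave 20 to 21 higher and 5 to 6 lower genes in A375, 18 to 19 and 4 to 5 in 1205Lu, 15 to 17 interactions, and 10 to 12 higher and 15 to 16 lower genes in 1205Lu with si-NT. The medians were 0.33 to 0.43 in A375 and 0.32 to 0.35 in 1205Lu. A 2-fold limit left 3 higher and 0 lower in each line, 1 interaction, and 6 higher and 5 lower with si-NT. Shares of all protein-coding genes at this limit were not counted.

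With a replicate block the counts were 21 higher and 6 lower in A375, 19 and 4 in 1205Lu, 15 interactions, and 12 and 15 with si-NT, and the medians were 0.37 and 0.33, so no count changed. Same-numbered samples deviated with a correlation of -0.05 to 0.04, so the numbers were not taken to pair the samples.

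Enriched promoter peaks in A375 were found at 17 genes with 2 times IgG, 0 with equal totals in peaks and 11 to 14 with a sample left out. In 1205Lu the number was 6 with 2 times IgG, 1 with 8 times IgG, 1 within 1 kb, 1 with equal totals and 2 to 3 with a sample left out.

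Signs turned for the following values, of which MDM2 alone had passed its test, and the cause was not tested. CYFIP2 in 1205Lu had 0.0207 with library totals alone, 0.0076 without a filter and 0.0084 with all 12 samples. The difference between lines turned for SESN1 (0.0355 with library totals alone, 0.0108 without a filter), for TNFRSF10B (-0.0175 with DESeq2, -0.0387 with upper-quartile normalization, -0.0074 with at least 10 counts in every sample) and for BAX (-0.0023 with DESeq2, -0.0235 with upper-quartile normalization). MDM2 in 1205Lu over A375 with si-NT had -0.0667 with library totals alone, where it was called lower, and -0.0641 without a filter. With a sample left out, the ranges that crossed 0 were -0.0235 to 0.11 for DDB2 in A375, -0.0201 to 0.17 for TRIAP1 and -0.076 to 0.11 for CYFIP2 in 1205Lu, and, for the difference between lines, -0.10 to 0.0761 for SESN1, -0.0212 to 0.0493 for TNFRSF10B, -0.84 to 0.45 for SPATA18 and -0.16 to 0.30 for ACER2. The depth limits ACER2, BBC3 and NINJ1 in 1205Lu, SPATA18 in A375 and all 1205Lu peaks, and there is 1 IgG sample per line.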
